A study of Sus scrofa with 4 samples.

Results

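Genes known from human and mouse as imprinted regulators of growth were looked up by symbol in RNA-seq values of pig fat precursor cells that were turned into adipocytes in culture, namely DLK1, IGF2, H19, MEST, CDKN1C, PLAGL1, PEG3, PEG10, NDN and GRB10. Rows named for 8 of these genes were found among 22944 rows of linear transcripts, and DLK1 and H19 were not analysed here because no row carried their names. All 8 rows had the start and end that RefSeq gives for the gene on Sscrofa11.1. Only 3 of the 8, PEG10, NDN and GRB10, reached 1 FPKM (fragments scaled to transcript length and library size) in at least 3 of the 4 libraries, and 9929 rows of the whole table did so.

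The cells were subcutaneous preadipocytes of male Erhualian piglets of 5 days of age. D0 was the confluent culture before induction. Cells of D2 had been kept for 2 days with dexamethasone, IBMX and insulin, those of D4 for 2 more days with insulin alone, and those of D8 were then returned to growth medium. RNA of 3 piglets was pooled in equal amounts into 1 library per stage, so that stage and library cannot be told apart, no test was possible, and every interval given here covers counting error only.

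Imprinted genes are expressed from 1 parental allele, chosen by methylation marks set in the egg or sperm. Many of them act on fetal growth, with paternally expressed genes such as IGF2 and DLK1 and maternally expressed genes such as CDKN1C, GRB10 and H19 often working in opposite directions. In fat, DLK1 (also called Pref-1) is known as a surface protein of preadipocytes that holds back adipocyte differentiation, and NDN as an inhibitor of proliferation and fat cell formation. The values carry no allelic information, so imprinting itself was not measured.

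The libraries held 75387428 (D0), 54987801 (D2), 74358922 (D4) and 54128151 (D8) counted fragments, as recovered from the values of rows with a known length. The summed FPKM of 8 adipocyte markers was 122, 484, 1715 and 2066 at D0, D2, D4 and D8. Its last step came mainly from FABP4 (853 to 1557 FPKM). Of the 6 adipocyte markers that reached 1 FPKM in at least 3 libraries, 0 were at least 2-fold higher at D8 than at D4. In that set 3 (PLIN1, CEBPA and PPARG) were at least 2-fold lower, and the median log2 ratio was -0.91. Over all genes 4.75% were higher by this much and 10.4% lower. The preadipocyte markers summed to 458, 598, 465 and 366. Apart from the adipocyte sum, no summed level ran in 1 direction with time. The smooth muscle and pericyte markers summed to 5773, 626, 506 and 4777. ACTA2 (2907, 324, 225 and 2762) and TAGLN (2767, 297, 277 and 1987) made up nearly all of that sum. CNN1, CSPG4 and MYH11 were also highest at D0, while RGS5 was highest at D4 (0.742) and MYH11 lowest at D8 (0.289). The G2/M cell cycle markers summed to 105, 11.3, 47.7 and 67.9, and the macrophage and immune markers to 3.81, 7.67, 9.04 and 5.43. CD14 (3.14, 5.64, 7.54 and 2.78) made up most of the macrophage and immune sum. CD163 and CD68 were higher at D4 than at D0, and PTPRC and CSF1R were lower. Endothelial markers summed to at most 2.74, and erythroid markers were listed at 0 in every library but D4 (0.271). Of the myogenic markers, 4 of 8 had a row, and DES alone (436, 37.7, 4.05 and 35.7) made up nearly all of their sum while MYOG stayed at or below 0.03.

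PEG10 encodes a gag-like protein derived from a retrotransposon and was the most abundant of the 8 genes at D0. The D0 library gave 85.0 FPKM, and those of D2, D4 and D8 gave 34.1, 30.4 and 34.0, which rested on 42001, 12268, 14794 and 12059 reads. The D0 library thus stood apart, and the 3 later libraries lay between 30.4 and 34.1. PEG10 fell 2.50-fold from D0 to D2 (log2 ratio -1.32, 95% counting interval -1.35 to -1.29), 2.80-fold from D0 to D4 (-1.49, -1.51 to -1.46) and 2.50-fold from D0 to D8 (-1.32, -1.35 to -1.29). Here a gene was said to rise or fall when it reached 1 FPKM in at least 3 libraries and changed at least 2-fold on the log2(FPKM + 0.01) scale. By this rule 1 of the 3 genes that could be judged fell at each later stage, against 10.7% of all 9929 genes that fell from D0 to D2, 9.57% from D0 to D4 and 4.82% from D0 to D8. In either direction 17.8%, 20.2% and 8.69% of all genes changed in these comparisons. Between consecutive later stages PEG10 differed by -0.17 (D4 against D2) and 0.16 (D8 against D4) on the log2 scale, and none of the 3 genes passed the rule there, where 6.02% of all genes changed from D2 to D4 (4.53% rose, 1.49% fell) and 15.2% from D4 to D8 (4.75% rose, 10.4% fell).

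**Figure D1:**
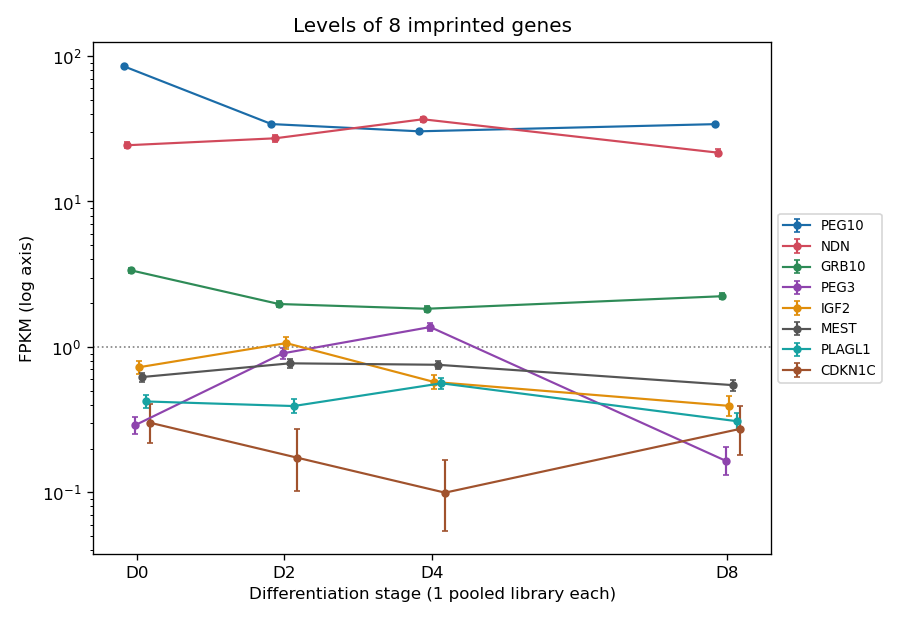
FPKM on a log axis of the 8 imprinted genes against differentiation day, with 1 pooled library per day. Points of a day are shifted slightly sideways, bars are exact 95% Poisson intervals and the dotted line marks 1 FPKM; PEG10 drops from 85.0 to 34.1 between D0 and D2, PEG3 peaks at 1.37 on D4, and PEG10, NDN and GRB10 stay above 1 throughout.

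The gene beside PEG10 on the opposite strand is SGCE, which encodes epsilon-sarcoglycan, a membrane protein, and shares the PEG10 promoter region. On Sscrofa11.1 PEG10 lies on chromosome 9 from 74474121 to 74486983 on the plus strand, and the starts of both genes were 217 bases apart. SGCE had an FPKM of 50.8, 40.6, 23.8 and 36.9 at D0, D2, D4 and D8. Like PEG10 it was highest at D0 and lowest at D4, but its course between them differed. SGCE was only 0.32 lower on the log2 scale at D2 than at D0 (interval -0.38 to -0.27 for the ratio) and fell 2.13-fold to D4 (-1.09, -1.15 to -1.03). PPP1R9A, a neighbour that encodes an actin-binding protein of neurons, did not pass the filter on low values and had an FPKM of 1.55, 0.34, 0.36 and 0.97. CASD1, a sialic acid acetyltransferase gene, lay between 3.97 and 5.79 and was also lowest at D4.

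IGF2 encodes a fetal growth factor that acts through the IGF1 receptor and a form of the insulin receptor. It lies on chromosome 2 from 1469183 to 1496417 on the minus strand. Its FPKM was 0.724, 1.06, 0.575 and 0.393 over the 4 stages, from 400, 428, 313 and 156 reads. IGF2 was thus highest at D2 and lowest at D8, with log2 ratios to D0 of 0.55 (0.35 to 0.75) at D2, -0.33 (-0.55 to -0.12) at D4 and -0.86 (-1.16 to -0.61) at D8. It passed 1 FPKM in 1 library only. IGF1, the related growth factor, stood far above it at 18.8, 49.1, 44.8 and 14.6 FPKM.

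GRB10 encodes an adaptor protein that binds the activated insulin and IGF1 receptors and restrains their signal. It lies on chromosome 9 from 136580363 to 136742552 on the minus strand and had an FPKM of 3.36, 1.97, 1.83 and 2.23, from 3231, 1384, 1736 and 1541 reads. Like PEG10 it was highest at D0 and lowest at D4. The log2 ratios to D0 were -0.76 (-0.86 to -0.68) at D2, -0.87 (-0.96 to -0.79) at D4 and -0.59 (-0.68 to -0.50) at D8, so that GRB10 did not reach the 2-fold rule. Its neighbour DDC, the DOPA decarboxylase gene, was at or below 0.05 FPKM.

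Of 19 further genes of the insulin and IGF pathway, 18 had a row and 13 passed the filter. From D0 to D2, 3 of the 13 rose and 1 fell, where 7.06% of all genes rose and 10.7% fell. From D0 to D4, 4 rose and 1 fell, where 10.7% of all genes rose and 9.57% fell. None of the 13 passed the rule between D0 and D8, where 8.69% of all genes did. IGF1 rose 2.61-fold to D2 and IGFBP5, an IGF-binding protein, had an FPKM of 29.0, 5.98, 6.05 and 28.7. Besides IGF1, the genes that rose were INSR, the insulin receptor (1.11, 3.61, 5.68 and 1.39 FPKM), IGF2R, the receptor that removes IGF2 (2.15, 4.44, 5.40 and 2.22), and, at D4 only, IRS1, a docking protein of both receptors (1.39, 1.26, 3.18 and 1.55). These 3 were named after their values were seen. INSR, IGF2R and IRS1 were highest at D4, which their choice by a rise to D4 makes likely. IGF1R, the IGF1 receptor gene, also passed the filter and was highest at D0 (2.16, 1.21, 1.35 and 1.48 FPKM).

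CDKN1C encodes p57, an inhibitor of cyclin-dependent kinases, and lies on chromosome 2 from 2019391 to 2022092 on the minus strand. Its FPKM was low, 0.302, 0.173, 0.0996 and 0.274 over the stages, from 43, 18, 14 and 28 reads. The D4 value was lower than that of D0 (log2 ratio -1.51, interval -2.58 to -0.70), the D8 value was higher than that of D4 (1.37, 0.48 to 2.50), and at this depth no difference between D8 and D0 was detectable (-0.14, -0.88 to 0.58). The related inhibitors CDKN1A (p21) and CDKN1B (p27) were far more abundant, at 51.4, 73.6, 67.9 and 48.2 FPKM and at 26.7, 22.1, 15.4 and 19.2 FPKM.

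PHLDA2, a maternally expressed gene of the same domain that limits placental growth, had an FPKM of 20.8, 3.97, 3.98 and 8.72. It fell 5.22-fold from D0 to D2 (log2 ratio -2.38, -2.63 to -2.15) and remained 2.38-fold lower at D8 (-1.25, -1.43 to -1.08). CARS, which encodes cysteinyl-tRNA synthetase, was at 20.8, 9.48, 7.61 and 16.6 FPKM, and NAP1L4, a histone chaperone gene, was at 94.5, 66.8, 59.2 and 71.1. Each of these 3 neighbours was highest at D0. OSBPL5, a lipid transfer protein gene, was also highest at D0, at 2.93, 1.12, 0.88 and 1.93. Not all neighbours did so, since LOC100627067 was at 0.891, 0.820, 1.31 and 1.46 FPKM, highest at D8, and LOC102158193 lay between 6.14 and 6.76. SLC22A18 and KCNQ1, a transporter and a potassium channel gene of the domain, were at most at 0.0674 and 0.0209. A course with D0 highest and D4 or D2 lowest was seen in PEG10, GRB10, CDKN1C and PHLDA2. For CDKN1C neither D0 over D8 nor D4 under D2 was resolved by the reads. The summed smooth muscle markers, nearly all ACTA2 and TAGLN, ran the same way (5773, 626, 506 and 4777). The G2/M markers too were highest at D0. The part of these markers in these results was not tested.

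**Figure D2:**
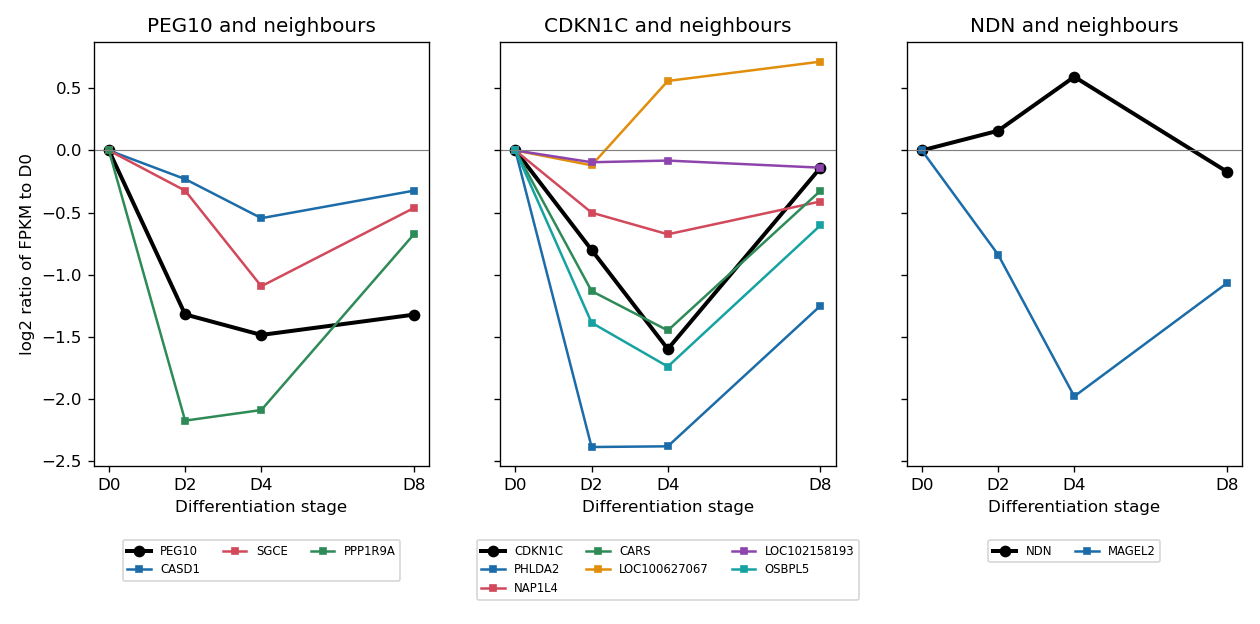
Log2 ratio of FPKM to D0, without a pseudocount, against differentiation day for PEG10, CDKN1C and NDN (black) and the protein-coding genes within 250 kb that had at least 30 reads in each library (coloured). PHLDA2 lies lowest in the CDKN1C panel, with 5.22-fold less at D2 than at D0, SGCE is lowest at D4, and NDN and MAGEL2 lie on opposite sides of 0 at D2 and D4.

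PLAGL1 and PEG3 both encode zinc finger proteins, of which PLAGL1 (also called ZAC1) is a transcription factor that acts on other imprinted genes. PEG3 (chromosome 6, 61281931 to 61307788, minus strand) had the widest range of the 8 genes. Its FPKM was 0.289, 0.903, 1.37 and 0.165 at D0, D2, D4 and D8, from 210, 478, 981 and 86 reads. The level at D4 was 4.61 times that at D0 (log2 ratio 2.21, 2.03 to 2.47), and at D8 it was 7.89 times lower than at D4 (-2.98, -3.39 to -2.73). The D8 value was also below that of D0 (-0.77, -1.19 to -0.44). PEG3 passed 1 FPKM in the D4 library alone and so was not judged by the 2-fold rule. Its neighbours ZIM2, another zinc finger gene, and LOC110261077, which starts 96 bases away on the opposite strand, were at or below 0.0336 and 0.0234.

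PLAGL1 (chromosome 1, 21299830 to 21371070, plus strand) was at 0.422, 0.392, 0.562 and 0.309 FPKM. It was highest at D4 and lowest at D8 as well, but within a 1.82-fold range. Its D2 value could not be told from D0 at this depth (log2 ratio -0.10, -0.32 to 0.11), and its D8 value was lower than D4 (-0.84, -1.09 to -0.64). The related PLAG1 and PLAGL2 genes were at 0.12 to 0.24 and at 0.21 to 0.46 FPKM.

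NDN encodes necdin, a protein of the MAGE family, and lies on chromosome 1 from 142412688 to 142413665 on the plus strand. Its row spans 978 bases, a coding length without UTRs. NDN had an FPKM of 24.4, 27.2, 36.7 and 21.6 at D0, D2, D4 and D8, from 1796, 1462, 2672 and 1146 reads. It was highest at D4, where it was 0.59 above D0 on the log2 scale (0.51 to 0.68), and D8 lay 0.76 below D4 (-0.86 to -0.66 for the ratio). None of these differences reached 2-fold. MAGEL2, its paternally expressed neighbour of the same family, was at 0.48, 0.27, 0.12 and 0.23 FPKM and was thus lowest at the stage at which NDN was highest (D4 against D0, -1.90, -2.53 to -1.46). MAGED1, a relative outside the imprinted domain, was at 40.3, 30.7, 27.4 and 33.2.

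MEST encodes an enzyme-like protein of the alpha/beta hydrolase fold that is known from mice as a correlate of fat mass expansion. It lies on chromosome 18 from 18319126 to 18358655 on the minus strand and showed the narrowest range of the 8 genes, 1.41-fold, with 0.621, 0.771, 0.754 and 0.546 FPKM. The D2 and D4 libraries did not differ beyond counting error (log2 ratio -0.03, -0.18 to 0.11). The last 12411 bases of its row overlap COPG2, a coat protein gene on the opposite strand with 11.2, 10.2, 9.75 and 9.56 FPKM, and since the sources used here do not say whether counting used strand, reads of both genes may be mixed in these values.

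At D8 all 8 genes were lower than at D0, with log2 ratios from -1.32 (PEG10) to -0.14 (CDKN1C), and for 7 of the 8 the counting interval excluded 0. The median of the 8 was -0.51. All genes that passed the filter had a median of -0.18, and 68.0% of them were lower at D8. Only 3 of the 8 passed that filter, so the sets are unlike. With library scaling by the median of ratios CDKN1C was slightly higher at D8 (0.02), so that 7 of 8 were lower, and the log2 ratios of NDN and MEST were -0.01 and -0.03. The shifted counting intervals of NDN (-0.12 to 0.09) and MEST (-0.20 to 0.14) then held 0, and 5 of the 8 excluded it. At D2 and at D4, 4 of the 8 genes were higher and 4 lower than at D0. The 3 genes that passed the filter had a median of -0.76 at D2, -0.87 at D4 and -0.59 at D8, beside medians of -0.03, 0.05 and -0.18 over all genes. Each of the medians of the 3 genes was the value of GRB10, and NDN was above D0 at D2 (0.16) and D4 (0.59). A set of 3 genes is too small to set against all genes.

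**Figure D3:**
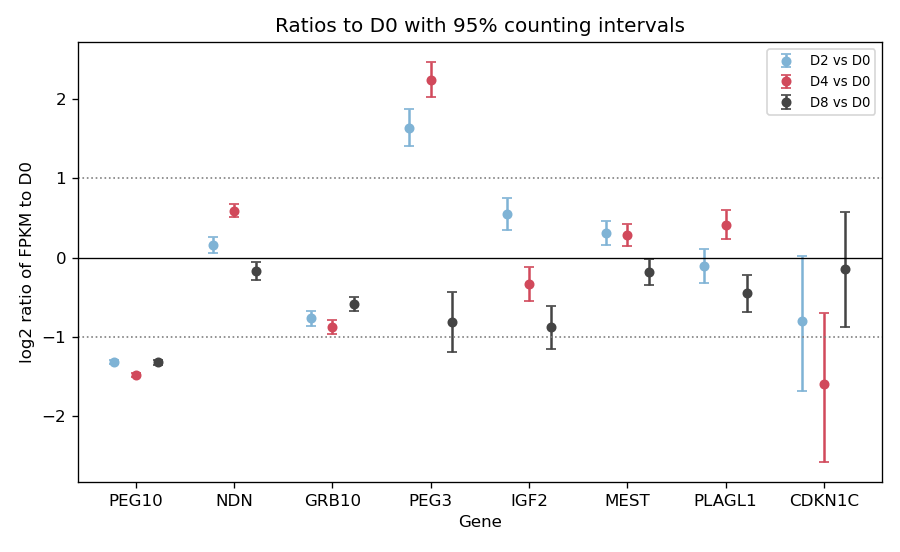
Log2 ratio of FPKM at D2, D4 and D8 to D0 for the 8 imprinted genes, without a pseudocount, with exact 95% counting intervals. Dotted lines mark 2-fold; all 8 points of D8 lie below 0, and at D4 those of NDN, PEG3, MEST and PLAGL1 lie above it.

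Ordered by peak and trough, the 8 genes followed 3 courses. PEG10, GRB10 and CDKN1C were highest at D0 and lowest at D4. NDN, PEG3 and PLAGL1 were highest at D4 and lowest at D8. IGF2 and MEST were highest at D2 and lowest at D8. The peaks of MEST (D2 or D4) and of CDKN1C (D0 or D8) were not resolved by the reads, and D8 was the peak of CDKN1C with scaling by the median of ratios. The trough of CDKN1C (D4 or D2) was not resolved either (log2 ratio of D4 to D2 -0.74, interval -1.92 to 0.29). Within each library the levels spanned a wide range. At D0 PEG10 stood above 95.7% of the protein-coding rows, NDN above 86.8% and GRB10 above 57.6%, and the other 5 genes stood above 30.8% to 38.5%. PEG10 was followed by NDN and GRB10 at D0, D2 and D8, and at D4 NDN (36.7, 35.4 to 38.2) was above PEG10 (30.4, 29.9 to 30.9). Among the low genes several neighbours in this order could not be told apart within counting error, namely IGF2 and MEST, PLAGL1 and CDKN1C, and CDKN1C and PEG3 at D0, IGF2 and PEG3, and PEG3 and MEST at D2, IGF2 and PLAGL1 at D4, and IGF2 and PLAGL1, PLAGL1 and CDKN1C, and CDKN1C and PEG3 at D8.

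At the position that RefSeq gives for DLK1, chromosome 7 from 121565844 to 121577493, 0 rows overlapped. Within 250 kb, 10 rows were found, of which WDR25, a WD-repeat protein gene, was the only one to pass the filter (1.68, 0.849, 1.93 and 1.35 FPKM). MEG3, the maternally expressed long non-coding RNA of this domain, was at 0.163, 0.277, 0.166 and 0.187 FPKM from 17, 21, 17 and 14 reads and showed no course that these reads could resolve. Rows further along the plus strand had other courses. LOC110261647, annotated as protein-coding, was at 1.38, 1.19, 0.621 and 0.25 FPKM, from 698, 439, 310 and 91 reads, and was thus 5.33 times lower at D8 than at D0 (log2 ratio -2.42, -2.79 to -2.14). Of the long non-coding RNA rows, LOC110261648 was at 0.404, 0.235, 0.107 and 0.0787 and LOC102163738 at 0.257, 0.162, 0.0564 and 0.0274. In each of these 3 rows every stage was lower than the one before. The step of LOC110261648 from D4 to D8 (116 and 62 reads) was within counting error (interval -0.91 to 0.01 for the log2 ratio). MIR127, a microRNA of the domain, had 1 read at D2 and 0 in the other libraries.

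**Figure D4:**
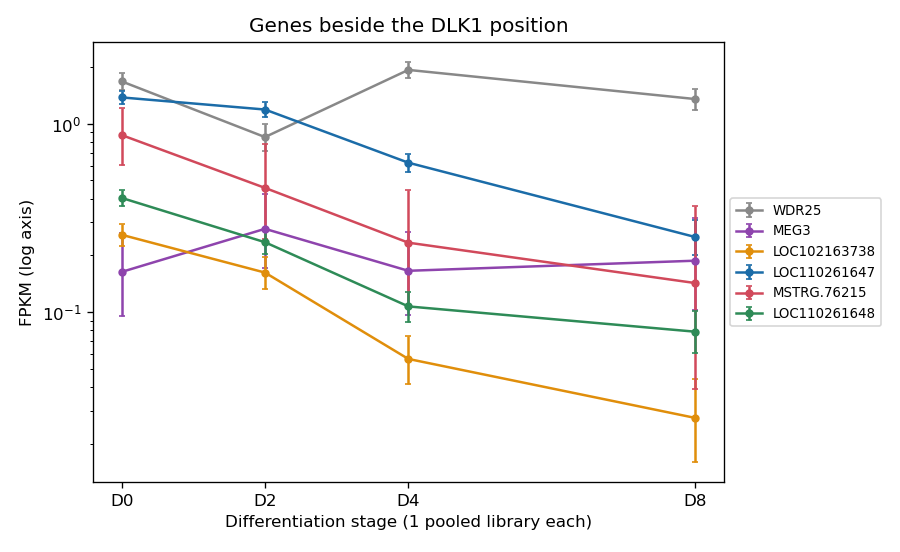
FPKM on a log axis against differentiation day for the 6 rows within 250 kb of the DLK1 position that had a read in every library, with exact 95% Poisson intervals. LOC110261647, LOC110261648 and LOC102163738 lie lower at each later stage, with the last step of LOC110261648 within counting error, and MEG3 stays between 0.163 and 0.277.

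DLK1 is known to act on Notch signalling. All 15 listed genes of the DLK1 and Notch pathway had a row and 5 passed the filter. None of these 5 changed 2-fold from D0, where 17.8% (D2), 20.2% (D4) and 8.69% (D8) of all genes did. A set of 5 genes is too small to set against these shares. Listed genes that did not pass the filter were not judged, and some of them differed more from D0. HEY2 was at 2.79, 0.443, 0.790 and 3.00 FPKM, NOTCH1 at 0.416, 0.119, 0.459 and 0.0759, and HEY1 at 0.217, 0.149, 1.54 and 0.360. These were also named after their values were seen. Between D2 and D4 1 of the 5 rose, the ligand gene JAG1 (1.26 on the log2 scale, named after its values were seen), where 4.53% of all genes rose. ADAM17, the protease that sheds DLK1 from the cell surface, was at 12.2, 13.2, 12.2 and 8.80 FPKM and the receptor gene NOTCH2 at 19.6, 13.5, 21.4 and 14.9. SOX9, a transcription factor gene of the same list, did not pass the filter and was at 0.18, 0.34, 0.57 and 0.11.

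Of 50 other genes reported as imprinted in human or mouse, 39 had a row and 18 passed the filter. From D0 to D2, 2 rose and 2 fell, where 7.06% of all genes rose and 10.7% fell. From D0 to D4, 4 rose and 3 fell, where 10.7% of all genes rose and 9.57% fell. From D0 to D8, 2 rose and 2 fell, where 3.87% of all genes rose and 4.82% fell. Their median log2 ratios were 0.03, 0.17 and -0.30. PON2, a paraoxonase gene, rose from 42.97 FPKM at D0 to 96.0 at D4 and 98.6 at D8, and DCN, which encodes the matrix proteoglycan decorin, rose 2.14-fold from D0 to D4 (154, 264, 330 and 232 FPKM). PHLDA2 and SGCE were the fallers with levels above 10 FPKM. The remaining genes that passed the rule against D0 were NAP1L5 (1.81, 3.92, 6.64 and 1.13 FPKM), IGF2R, RB1 (3.24, 1.23, 1.47 and 1.68), GATM (1.57, 1.90, 1.93 and 5.67) and DHCR7 (5.28, 3.98, 5.68 and 2.62), named after their values were seen. NAP1L5, a paternally expressed histone chaperone-like gene, and IGF2R were highest at D4 as NDN and PEG3 were.

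The protein-coding genes whose centred log2 profile over the 4 libraries lay closest to that of a member were, among 8846 candidates, EEF1AKMT2 (8.75, 3.28, 3.19 and 3.33 FPKM, distance 0.1004), RAP2A and UGCG for PEG10. For NDN they were GOT2 (28.2, 32.3, 42.7 and 25.2 FPKM, distance 0.0296), ZBTB1 and IRX3, and for GRB10 UBE2D3 (428, 262, 241 and 293 FPKM, distance 0.0414), RFC2 and RABGEF1. Each profile has 4 points from pooled libraries, so these names describe likeness only.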

How the data were processed

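Ribosome-depleted, strand-specific RNA-seq of 4 pooled libraries (D0, D2, D4 and D8, 3 piglets each) was used. The deposited values were FPKM, which the authors made from trimmed reads aligned to Sscrofa11.1 with HISAT2 2.0.5 and from a transcript assembly that added long non-coding RNAs; the counting tool and its strand setting are not given in the sources used here. Circular RNAs were deposited in the same column as SRPBM (junction reads scaled to mapped reads) and were kept apart. Tables of the study's own comparisons were not used.

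Rows were matched by gene name. Library totals were recovered from FPKM of microRNA and tRNA rows, whose length equals their span, and reads per row from the smallest length that made all 4 values whole (tolerance 0.001), which was found for 100% of rows; the recovered reads made up 99.0% to 99.2% of the totals. Exact Poisson intervals were given for levels and exact conditional 95% intervals for ratios. The intervals cover counting error only. Ratios were taken on log2(FPKM + 0.01) and intervals from reads without the pseudocount, which moved log2 ratios of the 8 genes by at most 0.0910. In 5 comparisons, genes with at least 1 FPKM in at least 3 libraries and a change of at least 2-fold were counted. Without replicates no test was made and no library could be left out. The calculation was tested on simulated data.

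Named were the 10 genes, list genes past this rule with at least 10 FPKM in a library (up to 6 per list), annotated genes within 250 kb and the 3 nearest profiles per gene that passed the filter. Members and lists were chosen with earlier results of these data known. Alternatives were other pseudocounts, filters, a 1.5-fold rule and 2 other scalings. Python 3.11.15, numpy 2.4.6, pandas 2.3.3, scipy 1.17.1 and matplotlib 3.10.9 were used.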

Additional observations from a re-analysis of the deposited data

Results flagged for a closer look

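A circular RNA that lies within GRB10 (ssc_circ_0004623, chromosome 9, 136594769 to 136598294, minus strand) gave a signal outside the linear transcripts compared above. The 4 libraries, in the order of the days, gave 38.5, 65.4, 65.3 and 33.6 SRPBM (junction reads scaled to mapped reads), from 6, 9, 11 and 4 junction reads. Each value was above the level that a count of 0 allows, taken as 3 reads (19.3, 21.8, 17.8 and 25.2 SRPBM). The exact 95% Poisson intervals, 14.1 to 83.8 at D0 and 32.6 to 117 at D4, overlapped, and no difference between stages was detectable at this depth.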

How the results depend on the processing

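PEG10 stayed past the 2-fold rule at D2, D4 and D8 against D0 under all 7 alternatives, and no called value changed sign. At 30.4 to 85.0 FPKM PEG10 could not be lost by a change of filter or a 1.5-fold rule, and a pseudocount could hardly move it. With the 2 other scalings its log2 ratios to D0 lay between -1.53 and -1.16. Without the filter on low values 2 of the 8 genes passed at D2 (PEG3, PEG10), 3 at D4 (CDKN1C, PEG3, PEG10) and 2 between D4 and D8 (CDKN1C, PEG3). With a 1.5-fold rule 2 passed at D2 and 2 at D8 (PEG10, GRB10), 3 at D4 (with NDN) and 1 between D4 and D8 (NDN). Counts over all genes, in the order D2 against D0, D4 against D2, D8 against D4, D4 against D0 and D8 against D0, went from 1764, 598, 1505, 2008 and 863 to 8334, 6140, 7908, 8939 and 6885 without the filter and to 3641, 1601, 3630, 4020 and 2316 at 1.5-fold, as looser rules must give. A pseudocount of 1 gave 334 (D4 against D2), 855 (D8 against D4) and 548 (D8 against D0), and requiring 1 FPKM in all 4 libraries gave 366 (D4 against D2). Scaling by the median of ratios changed the higher and lower counts from 472 and 1033 to 671 and 627 (D8 against D4) and from 384 and 479 to 475 and 328 (D8 against D0), with D8 scaled by -0.16 on the log2 scale. Small differences of CDKN1C (D8 against D0) under this scaling and of PLAGL1 (D2 against D0) under scaling to the coding sum turned sign, both within counting error. No paired analysis was possible because each stage had 1 library. Depth limits CDKN1C (14 to 43 reads) most, and the spread between animals was not measured.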
